A study of Mus musculus with 13 samples.

Results

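The genes described here act in ER-associated degradation (ERAD), the route by which misfolded proteins leave the endoplasmic reticulum (ER) to be destroyed. They are 10 genes chosen by symbol, Derl1, Derl2, Derl3, Sel1l, Syvn1, Herpud1, Os9, Edem1, Edem2 and Edem3, and all 10 were found among the 53392 genes of the count table. All 10 also passed the filter on low counts, after which 14317 genes were tested.

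In ERAD, the mannosidase-like Edem proteins act on the mannose chains of misfolded glycoproteins, and the lectin Os9 recognises trimmed chains and hands the protein to a membrane complex built on the ubiquitin ligase Syvn1 (also called Hrd1) and its partner Sel1l. Derlins form part of the channel through which the substrate is pulled into the cytosol, where the proteasome degrades it. Several of these genes are targets of the unfolded protein response, the programme that raises ER chaperones and ERAD factors when unfolded proteins build up. Hepatocytes secrete large amounts of protein and rely on this route heavily.

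The data are RNaseq counts of whole liver from 13 female mice aged 8 to 14 weeks, all fed a liquid diet with 28% of calories from ethanol for 4 weeks. The study lowers liver ceramides by inducing an acid ceramidase transgene, and the groups vary either the transgene or Dox to find a suitable control for that induction. Every mouse was homozygous for a Rosa26 allele in which a stop cassette between loxP sites precedes the rtTA transactivator, and for Albumin-Cre, which removes that cassette in hepatocytes. The groups were 4 ASAH− mice, which lack the transgene, given Dox with ethanol (ASAH− Etoh-Dox), 5 ASAH+ mice, which carry TRE-ASAH1, given the same diet (ASAH+ Etoh-Dox), and 4 ASAH+ mice given ethanol without Dox (ASAH+ Etoh). Dox was added at 200 mg/l, and the ASAH− mice were littermates of the ASAH+ mice. Only the ASAH+ Etoh-Dox mice, called induced mice below, had both the transgene and its inducer.

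For ASAH+ mice the sample titles state Dox where the descriptions and induction labels state none, and the reverse, and groups were taken from the descriptions. Asah1, the mouse gene for acid ceramidase, bears on that choice. Its level was 10314, 9668, 15134, 12725 and 15935 CPM (counts scaled to a common library total) in induced mice 1 to 5, numbered by replicate. In the ASAH− Etoh-Dox mice it was 48.7, 40.0, 53.7 and 55.0 CPM, and in the ASAH+ Etoh mice 46.8, 44.2, 46.8 and 48.3 CPM. The high level therefore lay in the samples whose descriptions say Dox, with a log2 fold change of 8.01 over ASAH− Etoh-Dox mice (SE 0.20; adjusted p = 1.24e-11, edgeR with Benjamini-Hochberg adjustment) and all 20 pairs higher. Between 17819486 and 35358711 counts were assigned to genes per mouse, with a median of 24454043. Because the libraries are of whole liver, fewer cells of a type and less RNA per cell cannot be told apart.

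Among the 3 derlins, Derl3 stood apart, with very low levels in 10 mice and high levels in 3. Derl3 (ENSMUSG00000009092.5; GRCm38, chr10:75893413-75895941, plus strand, protein coding) measured 0.320, 1.12, 0.0816 and 0.644 CPM in ASAH− Etoh-Dox mice 1 to 4. In ASAH+ Etoh mice 1 to 4 it measured 1.01, 0.570, 0.742 and 0.116 CPM. The induced mice 1 to 5 had 1.60, 0.648, 25.6, 13.6 and 16.3 CPM. Induced mice 3, 4 and 5 were thus far above every other mouse, whereas induced mice 1 and 2 lay at or close to the range of the other groups. Both pairs of groups overlapped, with the induced mouse higher in 19 of 20 pairs against ASAH− Etoh-Dox and in 18 of 20 pairs against ASAH+ Etoh. The counts behind these levels were 708, 340 and 375 in the 3 high mice and between 2 and 58 in the other 10, so the low values carry a large counting error. None of the 31-base words of the Derl3 transcripts occurs in a transcript of another gene, and no annotated gene overlaps it.

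**Figure D1:**
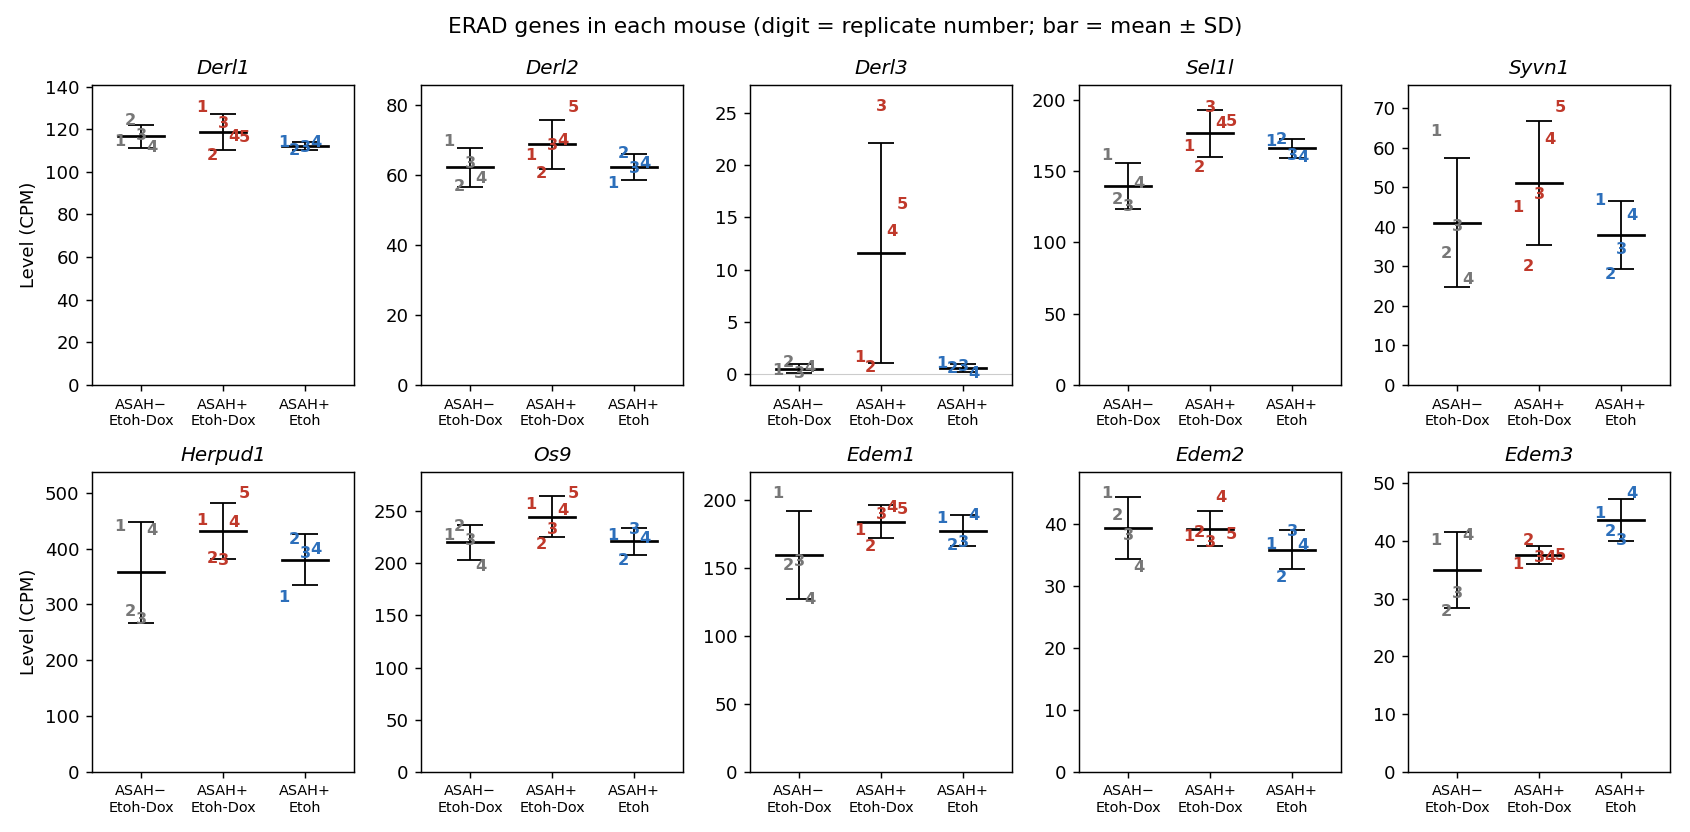
Level (CPM, from 0) of each of the 10 ERAD genes in each mouse, with the replicate number as the symbol, by group; the line is the group mean and the bar the SD (n = 4, 5 and 4 mice). Derl3 is at 13.6 CPM or more in induced mice 3, 4 and 5 and at 1.60 CPM or less in the other 10, while the groups overlap for most other genes.

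The mean of Derl3 was 11.6 ± 10.5 CPM in induced mice (SD, n = 5), 0.541 ± 0.448 in ASAH− Etoh-Dox mice (SD, n = 4) and 0.610 ± 0.377 in ASAH+ Etoh mice (SD, n = 4). The log2 fold change of induced over ASAH− Etoh-Dox mice was 4.37 (SE 1.06), with adjusted p = 1.00 by the quasi-likelihood test of edgeR, adjusted by Benjamini-Hochberg over all genes tested. Over ASAH+ Etoh mice the log2 fold change was 4.19 (SE 1.06; adjusted p = 0.473 by the same edgeR test). A two-sided exact permutation test on mean log2 CPM gave unadjusted p = 0.0476 against ASAH− Etoh-Dox and p = 0.0635 against ASAH+ Etoh, where 0.00794 is the smallest value it can give for 5 against 4 mice. Neither passed adjustment over all genes, which gave exact p = 1.00 and p = 0.682. No gene could pass in either comparison. Against ASAH+ Etoh even the smallest possible exact p, that of Edem3 below, did not. Against ASAH− Etoh-Dox that smallest p requires groups without overlap. Only 63 genes higher and 64 lower in induced mice had that, too few for any to pass. The adjusted exact values therefore do not bear on Derl3. DESeq2 on all mice did call Derl3 against ASAH− Etoh-Dox (log2 fold change 4.42, SE 0.985, Benjamini-Hochberg adjusted p = 0.0210) and gave it no adjusted p against ASAH+ Etoh. Its call therefore depended on the tool.

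Derl1 and Derl2 did not share the pattern of Derl3. Derl1 (chr15:57869502-57892448, minus strand, GRCm38) ranged from 111 to 124 CPM in ASAH− Etoh-Dox, 108 to 130 CPM in induced and 110 to 114 CPM in ASAH+ Etoh mice, with induced mouse 1 the highest of all 13. Of its 31-base words, 8.60% also occur in Gm35638, so part of its count could belong to that gene. Derl2 (chr11:71007164-71019841, minus strand) measured 65.7, 60.6, 68.5, 69.8 and 79.5 CPM in induced mice 1 to 5. Here induced mice 3, 4 and 5 were the highest of the 5, but ASAH− Etoh-Dox mouse 1, with 69.6 CPM, lay between them. An exon of Derl2 overlaps one of Mis12 on the opposite strand. The log2 fold changes of induced over ASAH− Etoh-Dox mice were 0.02 (SE 0.07) for Derl1, which was -0.01 without induced mouse 1, and 0.15 (SE 0.09) for Derl2.

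In the ligase complex, Sel1l had its highest levels in the same mice as Derl3. Sel1l, which stabilises the ligase and gathers its substrates (chr12:91806043-91849157, minus strand), measured 167, 153, 195, 183 and 185 CPM in induced mice 1 to 5. It measured 161, 130, 125 and 141 CPM in ASAH− Etoh-Dox mice 1 to 4 and 171, 172, 161 and 159 CPM in ASAH+ Etoh mice 1 to 4. Its 3 highest mice of all 13 were induced mice 3, 5 and 4, the 3 with high Derl3. The spans were unlike, since among induced mice Derl3 went from 0.648 to 25.6 CPM and Sel1l from 153 to 195 CPM.

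In ASAH− Etoh-Dox mice 2, 3 and 4 Sel1l was below every ASAH+ mouse, and in mouse 1 it lay within the ASAH+ range. Its log2 fold change of induced over ASAH− Etoh-Dox mice was 0.34 (SE 0.09; adjusted p = 1.00, quasi-likelihood test of edgeR, Benjamini-Hochberg adjusted), with the induced mouse higher in 19 of 20 pairs. The exact permutation test gave unadjusted p = 0.0238. DESeq2 on all mice gave Sel1l a log2 fold change of 0.35 (SE 0.0976; DESeq2 adjusted p = 0.414) and did not call it. The study's own DESeq2 analysis of these groups lists Sel1l as higher in ASAH+ mice. Over ASAH+ Etoh mice the induced mice differed by a log2 of 0.09 (SE 0.09), which was 0.04 without induced mouse 3 and 0.14 without induced mouse 2. ASAH− Etoh-Dox differed from ASAH+ Etoh by -0.25 (SE 0.10; adjusted p = 0.465, same edgeR test; exact unadjusted p = 0.0857), the ASAH− mouse being higher in 2 of 16 pairs. These 3 comparisons share groups, so the values are not independent of each other.

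Syvn1, the ubiquitin ligase itself (chr19:6046576-6053712, plus strand), varied more between mice of a group. It measured 44.9, 29.9, 48.3, 62.1 and 70.3 CPM in induced mice 1 to 5, and 64.1, 33.4, 40.0 and 26.6 CPM in ASAH− Etoh-Dox mice 1 to 4. The ASAH+ Etoh mice 1 to 4 had 46.7, 27.8, 34.3 and 42.9 CPM. Mice 5, 4 and 3 were the highest induced mice, the same 3 as for Derl3, though mouse 3, with the most Derl3, was close to mouse 1 in Syvn1, and ASAH− Etoh-Dox mouse 1 had the second highest Syvn1 of all 13 mice with Derl3 at 0.320 CPM. Syvn1 shares exon sequence with Mrpl49 on the opposite strand. The groups overlapped in each comparison, with log2 fold changes of 0.32 (SE 0.28) over ASAH− Etoh-Dox and 0.43 (SE 0.28) over ASAH+ Etoh. The former was 0.63 without ASAH− Etoh-Dox mouse 1, 0.16 without ASAH− Etoh-Dox mouse 4 and 0.18 without induced mouse 5, and the latter was 0.28 without induced mouse 5.

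Herpud1, which recruits factors to the ligase complex and is itself a target of the unfolded protein response (chr8:94386438-94395377, plus strand), did not follow Derl3. Induced mice 1 to 5 had 450, 382, 380, 447 and 498 CPM, so that mouse 3, with the highest Derl3, had the lowest Herpud1 of the 5. In ASAH− Etoh-Dox mice 1 to 4 the levels were 439, 287, 272 and 432 CPM. The ASAH+ Etoh mice ranged from 313 to 417 CPM. The log2 fold change of induced over ASAH− Etoh-Dox mice was 0.27 (SE 0.15) and over ASAH+ Etoh mice 0.18 (SE 0.15). The former was 0.18 without ASAH− Etoh-Dox mouse 2 and 0.16 without mouse 3 of that group, and the latter was 0.12 without induced mouse 5 and 0.10 without ASAH+ Etoh mouse 1.

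The lectin Os9 and the Edem genes differed among themselves. Os9 (chr10:127095650-127121131, minus strand) measured 257, 218, 233, 251 and 267 CPM in induced mice 1 to 5, so mouse 1, with little Derl3, had the second highest Os9. It ranged from 197 to 236 CPM in ASAH− Etoh-Dox and from 203 to 232 CPM in ASAH+ Etoh mice. Edem1 (chr6:108828641-108859356, plus strand) measured 178, 166, 190, 195 and 193 CPM in induced mice 1 to 5, again with mice 3, 4 and 5 on top. The highest Edem1 of all 13 mice, however, was the 205 CPM of ASAH− Etoh-Dox mouse 1, the other 3 of its group having 152, 155 and 127 CPM.

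Edem2 and Edem3 showed no sign of the Derl3 order. Edem2 (chr2:155701677-155729475, minus strand) measured 38.0, 38.6, 37.1, 44.2 and 38.4 CPM in induced mice 1 to 5, with mouse 3 the lowest. In ASAH− Etoh-Dox mice 1 to 4 it measured 44.9, 41.5, 38.2 and 32.9 CPM, mouse 1 being the highest of all 13, and in ASAH+ Etoh mice 1 to 4 it measured 36.8, 31.4, 38.7 and 36.5 CPM. Edem3 (chr1:151755371-151822051, plus strand) was nearly level in induced mice 1 to 5, at 35.8, 40.0, 37.1, 37.2 and 37.5 CPM. ASAH+ Etoh mice 1 to 4 had higher Edem3, at 44.7, 41.5, 40.0 and 48.1 CPM, and ASAH− Etoh-Dox mice ranged from 27.8 to 40.9 CPM. Every induced mouse lay below every ASAH+ Etoh mouse, though the nearest pair was equal at the digits printed. The difference was -0.22 on the log2 scale (SE 0.11; edgeR Benjamini-Hochberg adjusted p = 0.703), with an exact permutation p of 0.00794, the smallest value possible, that became 0.611 after adjustment. Against ASAH+ Etoh, 1 of the 10 genes was without overlap and lower in induced mice, beside 1.49% of all genes tested. ASAH− Etoh-Dox was also below ASAH+ Etoh, by -0.32 (SE 0.11; adjusted p = 0.441, quasi-likelihood test of edgeR, Benjamini-Hochberg adjusted), with the ASAH− mouse higher in 1 of 16 pairs.

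Counted over the list, no ERAD gene passed the threshold of 0.1 on the Benjamini-Hochberg adjusted p of the edgeR quasi-likelihood test in any comparison. For induced against ASAH− Etoh-Dox mice the count was 0 of 10, where 0.0140% of all genes tested passed. At an unadjusted p under 0.05, 2 of the 10 did (Derl3 and Sel1l, higher in induced mice), beside 2.86% of all genes. Both were already listed by the study at an adjusted p under 0.1 for these groups. Their count here is therefore not independent of that list. Without ASAH− Etoh-Dox mouse 1 the count at an unadjusted p under 0.05 was 6 (Derl2, Syvn1, Herpud1 and Edem1 added), beside 4.17%. DESeq2 on all mice called 1 of 10 (Derl3), beside 0.0768% of the genes it adjusted, and limma-voom called 0, beside 0.0140%. DESeq2 on those 2 groups alone also called Derl3, beside 0.0777%.

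For induced against ASAH+ Etoh mice edgeR called 0 of 10, beside 0.0140% of all genes, and 1 of 10 (Derl3) had an unadjusted p under 0.05, beside 7.29%. Without induced mouse 2 the latter count was 3 (Derl3, Syvn1 and Os9), beside 8.27% of all genes. It was 2 (Derl3 and Edem3) without ASAH− Etoh-Dox mouse 2 or 4 or ASAH+ Etoh mouse 3, beside 7.08%, 8.10% and 6.38%. DESeq2 on all mice, which gave Derl3 no adjusted p, and limma-voom also called 0, beside 2.35% and 0.0140%. DESeq2 on those 2 groups alone called 1, Derl3 again, beside 0.810% of its genes. For ASAH− Etoh-Dox against ASAH+ Etoh mice, where neither group was induced, edgeR called 0 of 10, beside 0.0140%. There 2 of 10 (Sel1l and Edem3, lower in ASAH− Etoh-Dox) had an unadjusted p under 0.05, beside 9.19%, and DESeq2 on all mice, which gave Derl3 no adjusted p, and limma-voom called 0, beside 3.55% and 0.0140%. Without ASAH− Etoh-Dox mouse 2 that count of 2 was 0, beside 7.09% of all genes, and without mouse 3 of that group it was 1 (Edem3), beside 6.08%. It was 3 without mouse 1 (Edem1 added), beside 9.67%, and 3 without mouse 4 (Edem2 added), beside 12.8%.

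**Figure D2:**
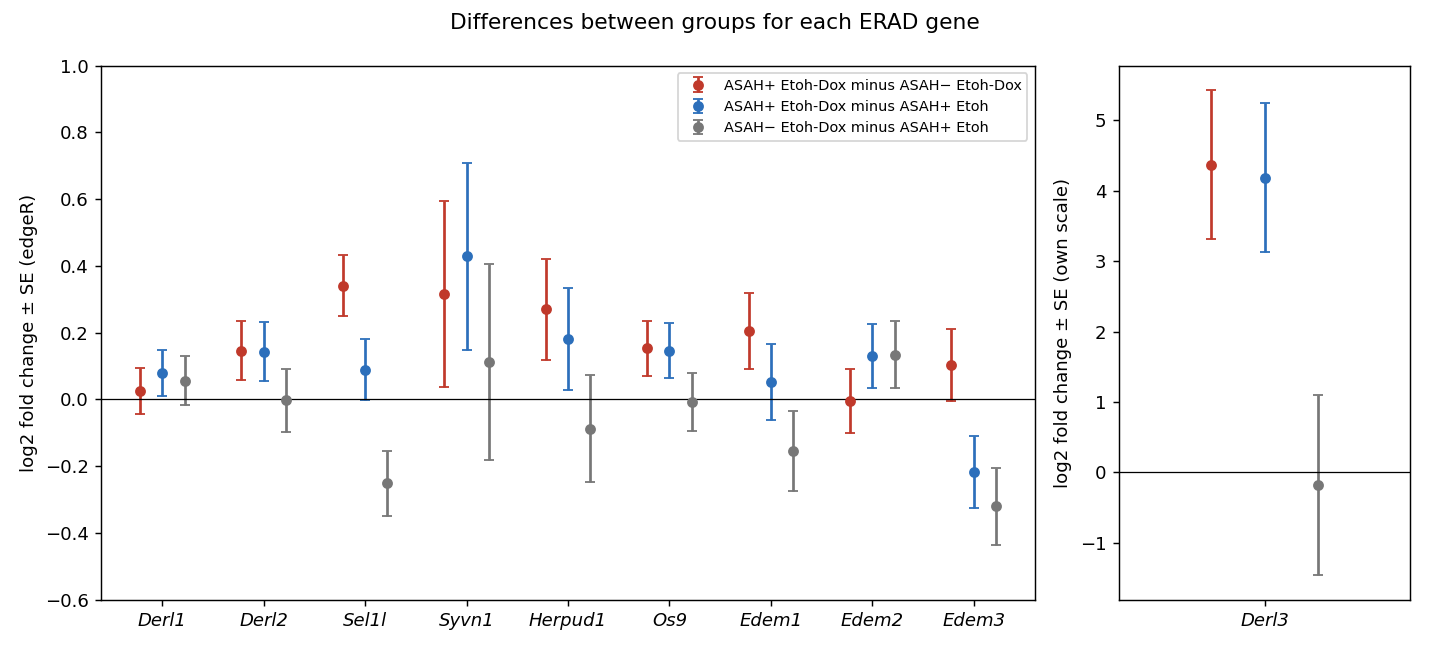
edgeR log2 fold change with its SE for each ERAD gene in the 3 comparisons of groups, with Derl3 on an axis of its own. Derl3 is at 4.37 and 4.19 in the comparisons with induced mice, and the other 9 genes lie between -0.32 and 0.43.

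The median log2 fold change over the 10 genes was 0.18 for induced over ASAH− Etoh-Dox mice, against -0.002 over all genes tested, with 9 genes positive and 1, Edem2, at -0.004. Without ASAH− Etoh-Dox mouse 1 that median was 0.28. The sign of Edem2 turned under several settings. Over ASAH+ Etoh mice the median was 0.14, against 0.01 over all genes, again with 9 positive and 1 negative, here Edem3. For ASAH− Etoh-Dox over ASAH+ Etoh it was -0.05, against 0.02 over all genes, with 3 positive and 7 negative. This median went from -0.14 without ASAH− Etoh-Dox mouse 1 to 0.005 without ASAH− Etoh-Dox mouse 3, and 5 of the 10 genes were positive without ASAH− Etoh-Dox mouse 2, 3 or 4 or ASAH+ Etoh mouse 1. Apart from Derl3 and Sel1l, the single differences of induced from ASAH− Etoh-Dox mice were under 2 times their standard errors.

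ERAD genes also differed in how abundant their transcripts were. Per kilobase of exon, Herpud1 had the highest level in induced mice, 185 ± 21.6 CPM per kilobase (SD, n = 5), followed by Os9 with 93.2 ± 7.46, Derl1 with 35.7 ± 2.54, Edem1 with 28.5 ± 1.87 and Sel1l with 20.6 ± 1.94. No mouse of one of these overlapped the next in that order. Edem2, Syvn1, Derl2 and Edem3 followed with means of 11.3, 10.5, 8.55 and 5.88 CPM per kilobase, where Syvn1 overlapped Edem2, Derl2 and Edem3, and Derl2 and Edem3 did not overlap each other. Derl3 was last in each group by mean, at 0.271 CPM per kilobase in ASAH− Etoh-Dox and 0.306 in ASAH+ Etoh mice. In induced mice its mean of 5.80 ± 5.27 CPM per kilobase (SD, n = 5) was close to the 5.88 ± 0.239 of Edem3 (SD, n = 5). There the 12.8, 6.84 and 8.16 CPM per kilobase of Derl3 in mice 3, 4 and 5 exceeded the 5.81, 5.83 and 5.87 of Edem3 in the same mice, and in mouse 3 also the 9.94 of Syvn1, the 8.51 of Derl2 and the 10.7 of Edem2. The order of the other 9 was the same in all 3 groups by mean. Exon lengths are those of all annotated exons joined, so a gene with a rarely used long exon is set too low on this scale.

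How the other genes ran beside Derl3 mouse by mouse is a description and was not tested, and Derl3 itself falls into 3 high mice and 10 low ones. In 4 of the other 9 genes (Derl2, Sel1l, Syvn1 and Edem1) the 3 highest of the 5 induced mice were the same as for Derl3. The same was true of 15.4% of all genes tested. Over all 13 mice, 1 of the 9, Sel1l, had the same 3 highest mice as Derl3, as did 0.957% of all genes. For Derl2, Syvn1 and Edem1 the ASAH− Etoh-Dox mouse 1 came among the highest 3. The other 5 genes (Derl1, Herpud1, Os9, Edem2 and Edem3) did not share the order within the induced group either.

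Likeness to Derl3 was also measured as Pearson r of log2 CPM over the 13 mice. It is a description with no p, and it rests on the 3 mice with high Derl3. Of 14316 genes ranked, Sel1l was at rank 62 (r 0.715), Os9 at 302, Derl2 at 477, Syvn1 at 766, Herpud1 at 1455, Edem1 at 1751, Derl1 at 2036, Edem2 at 4112 and Edem3 at 9572 (r -0.148). The median r of the 9 was 0.403, against 0.002 over all genes. Which gene was closest depended on the measure, since by Spearman rho over the same mice Os9 came first of the 9, at rank 11 (rho 0.780), and Sel1l was at rank 104 (rho 0.659). By that measure Syvn1 was at rank 771, Derl1 at 806, Edem1 at 1700, Derl2 at 2453, Herpud1 at 2521, Edem2 at 3401 and Edem3 at 13033. With group means removed first, Pearson r was 0.657 for Sel1l, 0.321 for Syvn1, 0.267 for Os9, 0.265 for Derl2 and 0.0866 for Herpud1, with a median of 0.190, the value of Derl1.

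**Figure D3:**
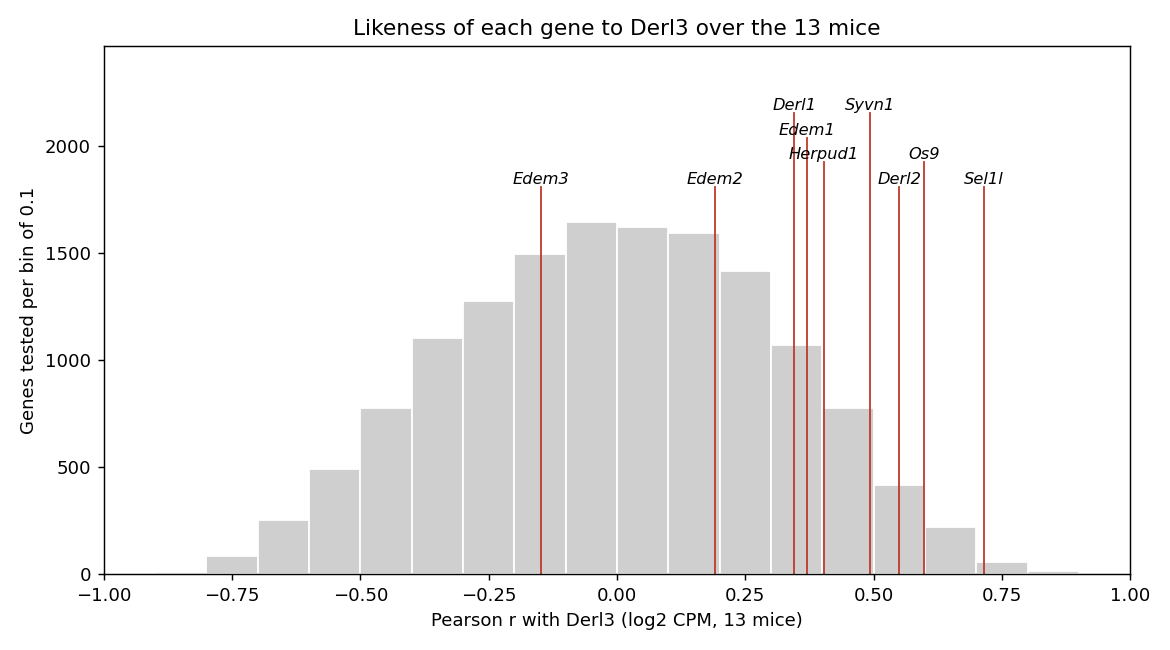
Number of genes tested by their Pearson r with Derl3 over the 13 mice, in bins of 0.1, with a red line at each of the other 9 ERAD genes. Sel1l, at 0.715, lies nearest the upper end, and Edem3, at -0.148, is the only line below 0.

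The 10 genes most like Derl3 were Pdia6 (r 0.959), Gmds (0.946), Sec11c (0.887), AW209491, Gm9531, Ugt3a1, Nucb2, Rad51d, Mapk8ip3 and Calr (0.823), none of them one of the 10 ERAD genes. Pdia6, a protein disulfide isomerase of the ER, measured 199, 181, 397, 279 and 325 CPM in induced mice 1 to 5, against 128 to 202 CPM in ASAH− Etoh-Dox and 143 to 197 CPM in ASAH+ Etoh mice. Sec11c, a catalytic subunit of the signal peptidase, had 12.9, 12.6, 17.4, 14.8 and 16.7 CPM there, and Calr, the ER lectin chaperone calreticulin, had 641, 469, 946, 748 and 688 CPM. These 3 genes were chosen for their likeness to Derl3, so their high levels in induced mice 3, 4 and 5 follow from that choice. In likeness to the mean of the other 9 ERAD genes, Derl3 was at rank 589 of 14308 genes.

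Elements through which the unfolded protein response acts on its target genes were looked for in the promoters. RefSeq promoter sequences on GRCm38.p6, from 250 bases before to 50 after each start, matched 9 of the 10 genes, all but Derl1. They were searched on both strands for the ER stress response element, which is CCAAT and CCACG with 9 bases between them, and for its second form, which is ATTGG and CCACG with 1 base between them. The first occurs in 0.119% of all 32851 promoters and the second in 0.0365%. Among the ERAD genes the first was found in Derl3 and Syvn1 and the second in Herpud1. Another motif, the unfolded protein response element of TGACG followed directly by TGG, occurs in 0.676% of promoters and was found in 0 of the 9 ERAD genes. Of the unfolded protein response genes, 6 of the 15 with a promoter had the first motif, among them Pdia6 and Calr, which are also among the 10 genes most like Derl3, 1 had its second form and 0 had the other motif. Of the other ERAD genes described below, 28 had a promoter, of which 0 had the first motif, 0 its second form and 3 (Txndc11, Ube2j1 and Vcp) the unfolded protein response element. The matches are shown, for the ERAD genes and for those 2, with 20 bases on each side, read in the direction of the gene, with the fixed letters of the element in capitals:
Derl3 (chr10:75893222-75893280, plus strand): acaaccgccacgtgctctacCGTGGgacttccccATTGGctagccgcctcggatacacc
Syvn1 (chr19:6046512-6046570, plus strand): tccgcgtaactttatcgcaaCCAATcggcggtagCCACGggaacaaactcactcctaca
Herpud1 (chr8:94386357-94386407, plus strand): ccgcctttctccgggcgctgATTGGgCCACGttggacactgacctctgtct
Pdia6 (chr12:17266471-17266529, plus strand): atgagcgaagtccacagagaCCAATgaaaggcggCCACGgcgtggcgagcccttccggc
Calr (chr8:84847055-84847113, minus strand): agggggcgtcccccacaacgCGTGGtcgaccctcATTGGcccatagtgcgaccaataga

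The positions of the elements are counted from the RefSeq start, which for Derl3 and Herpud1 is not the start of the gene given above. In Derl3 the element starts 156 bases before that start and lies on the opposite strand, and in Syvn1 it starts 44 bases before. Herpud1 has its element at 52 bases, in the same direction as the gene. The levels of these 3 genes were unlike: Derl3 was very low in 10 mice, Syvn1 had the same 3 highest induced mice, though in another order, and was also high in ASAH− Etoh-Dox mouse 1, and Herpud1 did not share those 3. Sel1l had no match to these letters in its window. A match is a description of the sequence and shows no binding, and a missing match says only that these letters are not in the window.

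The unfolded protein response list, 18 genes, all tested, was also described mouse by mouse. In 11 of the 18, the 3 highest induced mice were those of Derl3, beside 15.4% of all genes tested, and in 4 (Dnajc3, Sdf2l1, Pdia6 and Calr) the 3 highest of all 13 mice were, beside 0.957%. Their median log2 fold change was 0.34 for induced over ASAH− Etoh-Dox mice and 0.20 over ASAH+ Etoh mice, and -0.04 for ASAH− Etoh-Dox over ASAH+ Etoh. None passed edgeR's adjusted threshold in any comparison, and none was called by limma-voom or by DESeq2 on all mice. DESeq2, however, gave no adjusted p to 4 of the 18 against ASAH+ Etoh mice and to 4 between the other groups, Sdf2l1 among them both times. Over ASAH+ Etoh mice Sdf2l1 had a log2 fold change of 1.24 (SE 0.32; adjusted p = 0.473, quasi-likelihood test of edgeR, Benjamini-Hochberg adjusted). At an unadjusted p under 0.05, 6 of 18 were higher in induced than in ASAH− Etoh-Dox mice, and none lower, beside 2.86% of all genes in either direction. Against ASAH+ Etoh mice 3 were higher and 1 lower, beside 7.29%, and between the other groups there were 0, beside 9.19%. The highest log2 fold changes over ASAH− Etoh-Dox mice were 0.75 (SE 0.31) for Sdf2l1, 0.70 (SE 0.22) for Pdia6 and 0.47 (SE 0.41) for Manf, and the lowest were -0.06 (SE 0.09) for Atf6, -0.02 (SE 0.13) for Atf4 and 0.06 (SE 0.11) for Dnajb9.

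High chaperone levels were not limited to mice with high Derl3. Hspa5, the main ER chaperone BiP, and Hyou1 are named here after their values were seen. Hspa5 measured 462, 356, 703, 759 and 662 CPM in induced mice 1 to 5 and 811, 317, 360 and 278 CPM in ASAH− Etoh-Dox mice 1 to 4. In ASAH+ Etoh mice 1 to 4 it measured 601, 329, 358 and 486 CPM. ASAH− Etoh-Dox mouse 1 had the highest Hspa5 of all, and likewise 183 CPM of Hyou1 and 56.8 CPM of Manf, against 157 and 53.3 CPM in the highest induced mouse. In ASAH− Etoh-Dox mouse 1 Syvn1, Edem1, Edem2 and Derl2 were also among their 3 highest of all mice, and Derl3 was at 7 counts. Pdia6 measured 202 CPM there, below induced mice 3, 4 and 5. The 4 mice with the highest Hspa5 and Manf thus were ASAH− Etoh-Dox mouse 1 and induced mice 3, 4 and 5, whereas for Hyou1 ASAH+ Etoh mouse 1, with 131 CPM, came before induced mouse 3, with 123 CPM.

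**Figure D4:**
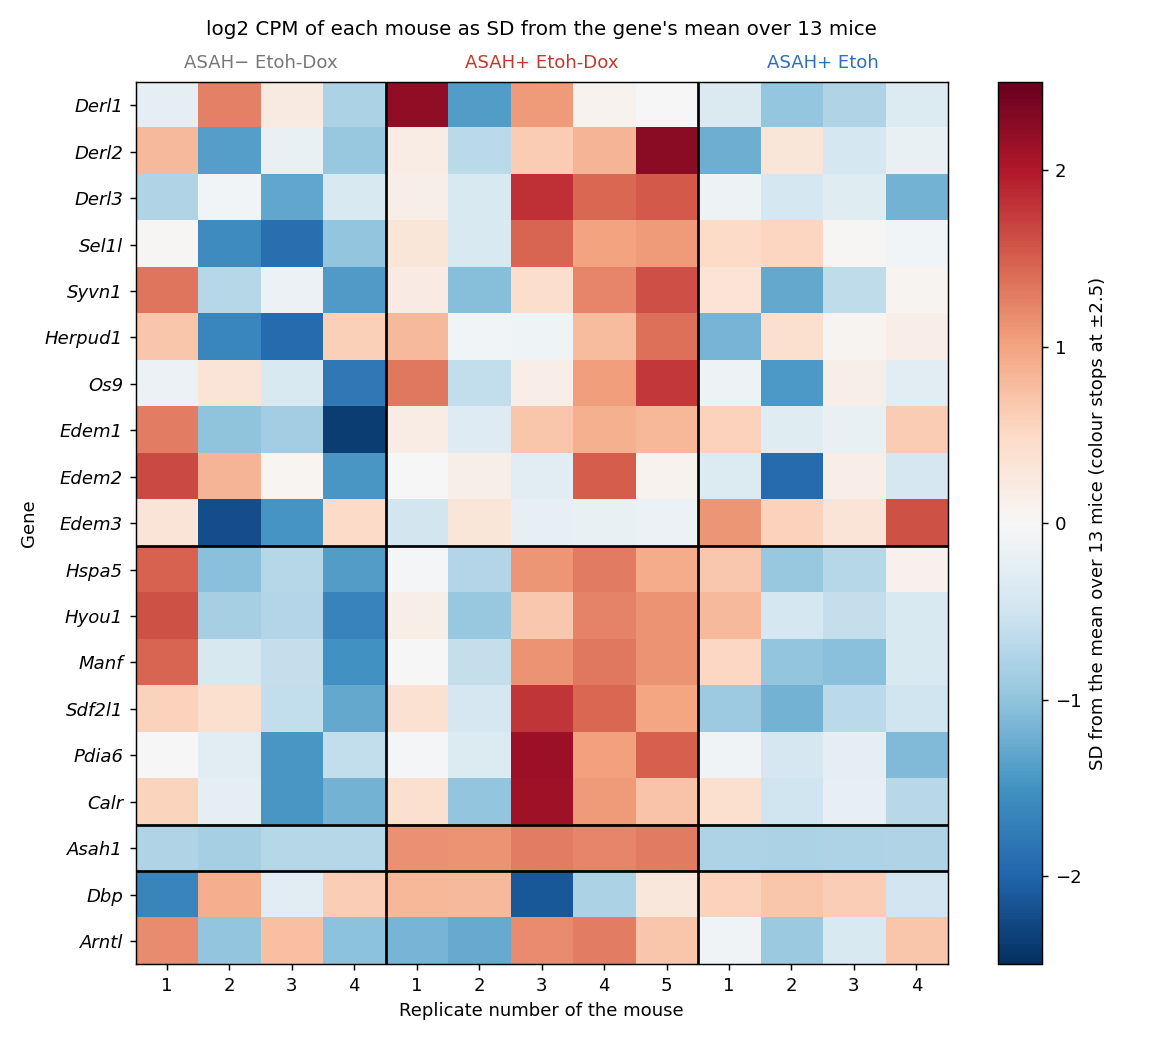
log2 CPM of 19 genes in each of the 13 mice, as SD from the gene's mean over all mice (red above, blue below); from the top, the 10 ERAD genes, 6 chaperone genes, Asah1, and the clock genes Dbp and Arntl. ASAH− Etoh-Dox mouse 1 is red for Hspa5, Hyou1, Manf, Syvn1, Edem1 and Edem2 and blue for Derl3, while induced mice 3, 4 and 5 are red for all of these but Edem2, which is near its mean in mice 3 and 5. All 6 chaperone genes share the 3 highest induced mice of Derl3. Of the 18 unfolded protein response genes 11 do, so the 6 drawn do not stand for that list.

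The list of other ERAD genes held 37 further genes, among them ligases, extraction factors and cytosolic enzymes, all tested. In 3 of the 37 the 3 highest induced mice were those of Derl3, beside 15.4% of all genes, and in 0 the 3 highest of all 13, beside 0.957%. The median log2 fold change of induced over ASAH− Etoh-Dox mice was 0.009, with 19 positive and 18 negative, and 0 had an edgeR adjusted p under 0.1 or an unadjusted p under 0.05, where 2.86% of all genes had the latter, nor did DESeq2 or limma-voom call any. Against ASAH+ Etoh mice 1 had an unadjusted p under 0.05, beside 7.29%, and between the other groups 5 did, beside 9.19%, with 0 called by edgeR and limma-voom and 1 by DESeq2 in each. DESeq2 gave no adjusted p to 13 and 9 of the 37 in these comparisons. The highest over ASAH− Etoh-Dox mice were Ngly1, which removes glycans in the cytosol (0.18, SE 0.09), Herpud2 (0.16, SE 0.08) and Uggt1 (0.14, SE 0.11). The lowest were Trim13 (-0.22, SE 0.36), Get4 (-0.21, SE 0.11) and Dnajc10 (-0.18, SE 0.09).

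Asah1 and the clock genes also varied among the induced mice. Asah1 was 15134, 12725 and 15935 CPM in mice 3, 4 and 5 and 10314 and 9668 CPM in mice 1 and 2. Its part in the level of Derl3 was not tested. Arntl, a clock gene that peaks at the opposite time of day from Dbp, measured 15.6, 17.3 and 8.81 CPM in induced mice 3, 4 and 5 and at most 0.940 CPM in mice 1 and 2, and Dbp measured 102, 99.7, 4.95, 19.3 and 57.8 CPM in induced mice 1 to 5. In the other groups Arntl was 15.6 and 9.43 CPM in ASAH− Etoh-Dox mice 1 and 3 and 8.79 CPM in ASAH+ Etoh mouse 4. When each mouse's Dbp to Arntl ratio (log2) entered the edgeR fit, the log2 fold change of Derl3 was 3.58 rather than 4.37 over ASAH− Etoh-Dox and 3.24 rather than 4.19 over ASAH+ Etoh mice. The part of the time of day in the level of Derl3 was not tested.

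Markers of other cell types were examined because plasma cells and pancreatic acinar cells are known for high Derl3. The 8 plasma cell markers summed to 12.1, 35.2, 14.5, 18.7 and 12.2 CPM in induced mice 1 to 5, so that the highest sum was in mouse 2, with low Derl3. In ASAH− Etoh-Dox mice 1 to 4 the sums were 24.0, 16.7, 17.6 and 17.7 CPM, and in ASAH+ Etoh mice 1 to 4 they were 9.63, 22.1, 18.0 and 14.3 CPM. Igkc was the most abundant, and Tnfrsf17 had 0 counts in 12 mice and 2 in ASAH− Etoh-Dox mouse 1. The 10 pancreatic acinar markers summed to 8.74, 7.17, 8.68, 9.95 and 7.37 CPM in induced mice, with Cela1 the most abundant by far, Pnlip and Clps at 0 in all 13 mice, and 7 of the 10 at no more than 3 counts in any mouse. In the other groups these sums ranged from 5.72 to 12.5 CPM, with the highest in ASAH− Etoh-Dox mouse 1. Neither sum set induced mice 3, 4 and 5 apart from the other mice. The 6 hepatocyte markers, led by Alb, summed to between 79330 and 129900 CPM per mouse, a sum that Alb dominates. DESeq2 on all mice called 1 of the 6 in induced against ASAH− Etoh-Dox mice, beside 0.0768% of the genes it adjusted. It called 1 in induced against ASAH+ Etoh mice, beside 2.35%, and 2 in ASAH− Etoh-Dox against ASAH+ Etoh mice, beside 3.55%. In each, edgeR and limma-voom called 0, beside 0.0140% of all genes, and 2 of 6 had an edgeR unadjusted p under 0.05. Of all genes, 2.86%, 7.29% and 9.19% had such an unadjusted p in these comparisons, in the same order. The genes DESeq2 called, and those called among the markers below, are named here after their values were seen. Serpina1a was lower in induced mice in both comparisons, with DESeq2 log2 fold changes of -0.26 over ASAH− Etoh-Dox (SE 0.0648; adjusted p = 0.0815) and -0.21 over ASAH+ Etoh (SE 0.0648; adjusted p = 0.0650). In ASAH− Etoh-Dox over ASAH+ Etoh mice Apoa1 was higher (0.53, SE 0.143; DESeq2 adjusted p = 0.0304) and Cyp3a11 lower (-0.54, SE 0.182; DESeq2 adjusted p = 0.0928).

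Kupffer cell and macrophage markers, led by Cd5l, summed to 413, 428, 226, 350 and 222 CPM in induced mice 1 to 5, lower in mice 3, 4 and 5 than in mice 1 and 2. In ASAH− Etoh-Dox mice they ranged from 301 to 584 CPM and in ASAH+ Etoh mice from 238 to 299 CPM. Of these 5 markers, 3 had an edgeR unadjusted p under 0.05 in ASAH− Etoh-Dox over ASAH+ Etoh mice, all higher, beside 9.19% of all genes. There edgeR, limma-voom and DESeq2, which gave 1 no adjusted p, called 0. Sinusoidal endothelial markers, led by Clec4g, summed to 107, 114, 95.1, 130 and 114 CPM in induced mice 1 to 5, against 161, 120, 144 and 148 CPM in ASAH+ Etoh mice 1 to 4 and 123, 108, 198 and 137 CPM in ASAH− Etoh-Dox mice 1 to 4. Against ASAH+ Etoh mice 4 of these 5 were lower in induced mice at an edgeR unadjusted p under 0.05, beside 7.29% of all genes. There 1, Clec4g, was called by DESeq2 (-0.52, SE 0.170; adjusted p = 0.0986), beside 2.35%, with 2 given no adjusted p and 0 called by edgeR and limma-voom. Against ASAH− Etoh-Dox mice 3 of the 5 were lower in induced mice at an edgeR unadjusted p under 0.05, beside 2.86%, and DESeq2, edgeR and limma-voom called 0. Stellate cell markers, led by Dcn, ranged from 177 to 274 CPM, and cholangiocyte markers, led by Spp1, from 31.5 to 79.1 CPM with the top in ASAH− Etoh-Dox mouse 1. B cell markers, led by Cd79b, stayed at or below 4.73 CPM, T and NK cell markers, led by Trac, at or below 4.40 CPM, and neutrophil markers, led by S100a9, at or below 1.93 CPM with Ly6g at no more than 3 counts. Red cell genes, 5 in number and led by Hbb-bs, summed to 135, 160, 175 and 192 CPM in ASAH+ Etoh mice 1 to 4, below every mouse of the other groups. They summed to 231, 752, 1714 and 215 CPM in ASAH− Etoh-Dox mice 1 to 4 and to 689, 241, 871, 355 and 646 CPM in induced mice 1 to 5. Over ASAH+ Etoh mice DESeq2 called 2 of the 5 higher in induced mice (Hba-a2 and Hbb-bt), beside 2.35% of the genes it adjusted. It called 4 of the 5 higher in ASAH− Etoh-Dox mice (Hba-a1, Hba-a2, Hbb-bs and Hbb-bt), beside 3.55%, and gave Alas2 no adjusted p in either. All 5 had an edgeR unadjusted p under 0.05 in both, beside 7.29% and 9.19% of all genes, and edgeR and limma-voom called 0. Hba-a2, with the smallest adjusted p of the 5, had a DESeq2 log2 fold change of 1.88 in induced mice (SE 0.591; adjusted p = 0.0779) and of 2.28 in ASAH− Etoh-Dox mice (SE 0.623; adjusted p = 0.0340). Markers of red cells, hepatocytes, endothelium and macrophages thus varied with the groups in comparisons for which differences of Edem3, Sel1l and Derl3 are given. The part of these cells in the results was not tested.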

How the data were processed

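Whole-liver RNA of 13 mice was sequenced as 100-base single-end reads from strand-marking, poly(A)-selected libraries. Salmon was used by the authors for assigning reads to GENCODE M19 transcripts on GRCm38.p6, and tximport for sums per gene, so the deposited values are estimated counts, which were already whole numbers. Groups were taken from the sample descriptions. Genes with low counts were removed with filterByExpr. Libraries were scaled by TMM and tested with edgeR 4.0.16 (robust quasi-likelihood fit of 3 group means) in R 4.3.3, with Benjamini-Hochberg adjustment over 14317 genes and a threshold of 0.1. The 3 comparisons share groups. DESeq2 1.42.0 and limma-voom (limma 3.58.1) were run as alternatives, as were other filters, scalings, covariates and fits without each mouse. Single genes were also tested by exact permutation of log2 CPM (prior count 2). The tests were checked on simulated data.

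Genes named were Asah1, Dbp, Arntl, the 10 ERAD genes, the 3 highest and 3 lowest by log2 fold change (induced over ASAH− Etoh-Dox) of the other ERAD and unfolded protein response lists, and the 10 most like Derl3. The rule also took the 5 most like the mean of the other 9, which are not reported here. Markers of hepatocytes, plasma, B, pancreatic acinar, Kupffer, sinusoidal endothelial, stellate, biliary, T and NK, neutrophil and red cells were summed. Genes and lists were chosen with earlier results of these data known. No 2 libraries of a group agreed within sampling noise.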

Additional observations from a re-analysis of the deposited data

Results flagged for a closer look

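Edem2 in ASAH+ Etoh-Dox mouse 4 was set apart from its group, at 44.2 CPM against 38.6 CPM in the next mouse and 37.1 CPM in the lowest of the 5. The gap to the next mouse was 0.783 of the range of the group. It was the single such value among 30 sets of values, 10 genes in 3 groups, and chance sets apart about 1 in 20 groups. Derl3 in the induced mice was not picked out by this measure, which looks for 1 distant mouse, since 3 of the 5 mice were high.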

How the results depend on the processing

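Among 294 log2 fold changes of single ERAD genes refitted under settings other than leaving out a mouse, 283 kept their direction and their side of the threshold, 3 passed it (Derl3 with DESeq2) and 8 turned. The number of ERAD genes called was 1, Derl3, with DESeq2 on all mice for induced against ASAH− Etoh-Dox (adjusted p = 0.0210), and 1 with DESeq2 on the groups compared only, both there (adjusted p = 0.0705) and against ASAH+ Etoh (adjusted p = 0.0149). The count was 0 under each other setting, leaving out each mouse included, though with at least 10 counts asked of every mouse Derl3 was filtered out and 9 ERAD genes were tested. Derl3 also had no adjusted p with DESeq2 on all mice against ASAH+ Etoh, nor with either DESeq2 fit for ASAH− Etoh-Dox over ASAH+ Etoh, so these counts too cover 9 genes. Edem2 over ASAH− Etoh-Dox, near 0 throughout, turned to 0.000355 with DESeq2 on all mice, 0.00349 with limma-voom, 0.00494 with edgeR on the groups compared only, 0.00876 without a filter and 0.00518 with Asah1 left out. With the Dbp to Arntl ratio in the fit, Edem1 over ASAH+ Etoh turned to -0.00210 and Syvn1 in ASAH− Etoh-Dox over ASAH+ Etoh to -0.0340. The cause was not tested.

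Leaving out each mouse, the median for induced over ASAH− Etoh-Dox ranged from 0.139 to 0.285, the latter without ASAH− Etoh-Dox mouse 1, when 6 rather than 2 ERAD genes had an unadjusted p under 0.05, beside 4.17% of all genes rather than 2.86%. That number ranged from 1 to 3 for induced over ASAH+ Etoh and from 0 to 3 for ASAH− Etoh-Dox over ASAH+ Etoh. Some settings that left out no mouse also moved that number. With a mouse left out, the median ranged from 0.0928 to 0.161 for induced over ASAH+ Etoh. For ASAH− Etoh-Dox over ASAH+ Etoh it ranged from -0.141 to 0.00545. For induced over ASAH− Etoh-Dox, Syvn1 ranged from 0.156 to 0.626, Derl1 from -0.0106 to 0.0564, Edem2 from -0.0805 to 0.0734 and Derl3 from 3.85 to 4.99. The exact permutation p ranged from 0.0286 to 0.0571 for Derl3 and from 0.0179 to 0.0571 for Sel1l. For Derl3 over ASAH+ Etoh the exact permutation p ranged from 0.0286, without induced mouse 2, to 0.0857. For Sel1l in ASAH− Etoh-Dox over ASAH+ Etoh it ranged from 0.0286, without ASAH− Etoh-Dox mouse 1, to 0.0857. For ASAH− Etoh-Dox over ASAH+ Etoh, Derl2 ranged from -0.0775 to 0.0382, Derl3 from -0.797 to 0.168, Syvn1 from -0.204 to 0.272, Herpud1 from -0.215 to 0.0225 and Os9 from -0.0481 to 0.0417.

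With the replicate block, ERAD genes called remained at 0 in each comparison. Genes called were 1, 2 and 0 in place of 2, 2 and 2. Over ASAH− Etoh-Dox the block gave 0.00637 for Edem2, 0.186 rather than 0.316 for Syvn1 and 0.0888 rather than 0.145 for Derl2. Derl3 was 3.57 rather than 4.37. Induced mouse 5 has no partner and adds nothing in that fit. The numbers did not pair the mice: deviations of same-numbered mice had a mean correlation of -0.0462 over 12 pairs, and 0 of 13 mice correlated best with its own number.

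At 2 to 58 counts in 10 mice, the low levels of Derl3 limit its fold change. Groups of 4 and 5 mice limit each test, and 3 mice set the Derl3 result.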
